A study of Rattus norvegicus with 20 samples.

Results

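Oesophageal tissue from rats with surgically induced reflux that were given STW5 at 2 ml/kg was compared with oesophageal tissue from sham-operated rats. The comparison used 8 of the 20 arrays in the series, the 4 whose titles name STW5 at 2 ml/kg and the 4 whose titles name sham surgery. All animals were Wistar rats, with 4 animals in each group per the design text; their age and sex are not given in the labels. The high-dose animals received STW5, a herbal medicine blended from several plant extracts and taken for functional gut complaints, for 7 days before the operation and for 10 days after it. The labels name no drug for the sham group and none for a group of untreated rats with oesophagitis, which is used below as a reference. The remaining groups received STW5 at 0.5 ml/kg or omeprazole, a proton pump inhibitor, at 30 mg/kg over the same days. Each tissue RNA was hybridised alone (1 colour, Cy3) to an Agilent rat array with 58717 features that are not controls.

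Reflux oesophagitis is the injury of the oesophageal lining by gastric acid, pepsin and bile. The rat oesophagus is lined by a keratinised squamous epithelium whose cells leave a basal layer, join through tight junctions and desmosomes and end as cornified sheets, above a wall that is largely striated muscle. Injured epithelium and resident macrophages release chemokines and cytokines that draw in neutrophils, monocytes, eosinophils and lymphocytes, and fibroblasts answer with proteases, matrix and growth signals.

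Levels are given as log2 of the processed signal minus the 75th percentile of the same array, so 0 is that percentile of the array's spots and a difference of 1 is a doubling of the signal. Names of doses follow the titles of the scanner files. Of the 20 columns of the deposited value table, 12 match their own scanner array, and the 8 columns of the STW5 groups match scanner arrays of the other dose. Under the table's assignment every signed value below would describe 0.5 ml/kg. Unless another setting or a left-out array is named, adjusted p-values are from 1 limma fit over 13745 genes with Benjamini-Hochberg adjustment. Changes carry standard errors from that fit. A gene is said to have risen or fallen where its adjusted p was under 0.05. The sham arrays lie alone on 1 slide and the high-dose arrays share another with omeprazole. The untreated arrays share a further slide with those of 0.5 ml/kg. Slide and group therefore cannot be told apart, and this holds for the comparisons with untreated tissue as well. As the rule of this comparison asks, 184 genes on which every high-dose and omeprazole array lay beyond all other arrays (171 higher, 13 lower) were set aside, which left 13561. Nothing in the labels says how far the animals were handled apart, and the p-values measure only the spread between these samples.

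Between 61.5% and 70.5% of features were well above background on an array, with 62.7% to 66.8% in the sham group and 66.2% to 70.5% in the high-dose group, and no feature was saturated. Squamous and striated muscle genes were high on all 8 arrays: Krt13, a keratin of the oesophageal lining, ranged from 6.54 to 8.31 and skeletal actin Acta1 from 4.82 to 7.16. Sham replicate 2 lay closer to an omeprazole array than to any other sham array. Over 3970 bright probes its spread against omeprazole replicate 2 was 2.11 times the spread between repeated spots of 1 array, against 4.85, 8.06 and 8.49 for sham replicates 3, 4 and 1. Its correlation with omeprazole replicate 2 across genes was 0.993, against 0.964 to 0.974 with the other sham arrays (a description, with no test). The labels of that array were kept, and results are given with and without it. Sham replicate 4 carried more signal of stomach, fat and blood: Gkn1, a gastric mucus cell gene, read 3.30 there and -6.96, -3.11 and -6.88 in the other sham arrays, Adipoq 3.83 against -3.92 to -0.09, and Hbb 6.33 against 4.33 to 5.78. What part these tissues had in any result below was not tested.

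**Figure D1:**
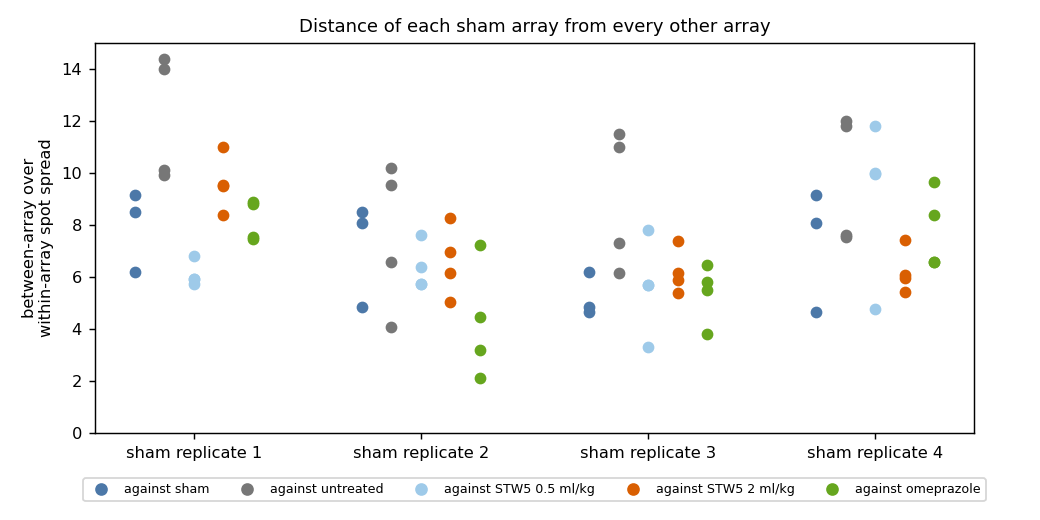
Each point compares 1 sham array with 1 other array; the vertical axis is the spread of log2 differences between the arrays divided by the spread between repeated spots within an array, over 3970 bright probes. Sham replicate 2 lies nearest to omeprazole replicate 2 (2.11) and farther from sham replicates 3, 4 and 1 (4.85, 8.06 and 8.49).

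The high-dose oesophagus differed from sham in inflammatory and remodelling genes, which were higher, and in fewer epithelial genes, which were lower. Of the 13561 genes, 687 rose (5.07%) and 339 fell (2.5%). Without sham replicate 2 the counts were 863 (6.36%) and 473 (3.49%). In 1190 genes (8.78%) all 4 high-dose arrays lay above all 4 sham arrays and in 1154 genes (8.51%) all 4 lay below. The median change over all genes was -0.10. These figures leave out the 184 set-aside genes, whose high-dose arrays by that rule all lay beyond all sham arrays (171 higher, 13 lower). Of the 184, 162 passed the test against sham. With the set-aside genes kept, 845 genes rose and 343 fell, and 71.1% of calls were higher. In untreated oesophagitis, measured against the same sham arrays, 2046 genes rose (15.1%) and 2421 fell (17.9%). Against untreated oesophagitis the high dose was lower in 596 genes (4.39%) and higher in 551 (4.06%); this comparison shares the high-dose arrays with the first. The share of calls that were higher, 67% here, depended on the scaling: it was 60% with quantile scaling (656 higher, 437 lower), 40.7% with median scaling (553 and 805) and 37.1% with normexp background correction (497 and 844). The counts also rested on single arrays. They fell to 289 and 76 without sham replicate 1, 238 and 68 without sham replicate 3, 387 and 140, 284 and 114, and 222 and 66 without high-dose replicates 2, 3 and 4, and the lower count was 209 without high-dose replicate 1 and 552 without sham replicate 4. For this reason the groups of genes below are given with the range of their counts when 1 of the 8 arrays was left out in turn. Of the 102 genes called among the 231 chosen for naming, 44 kept their call in all 8 of those fits.

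**Figure D2:**
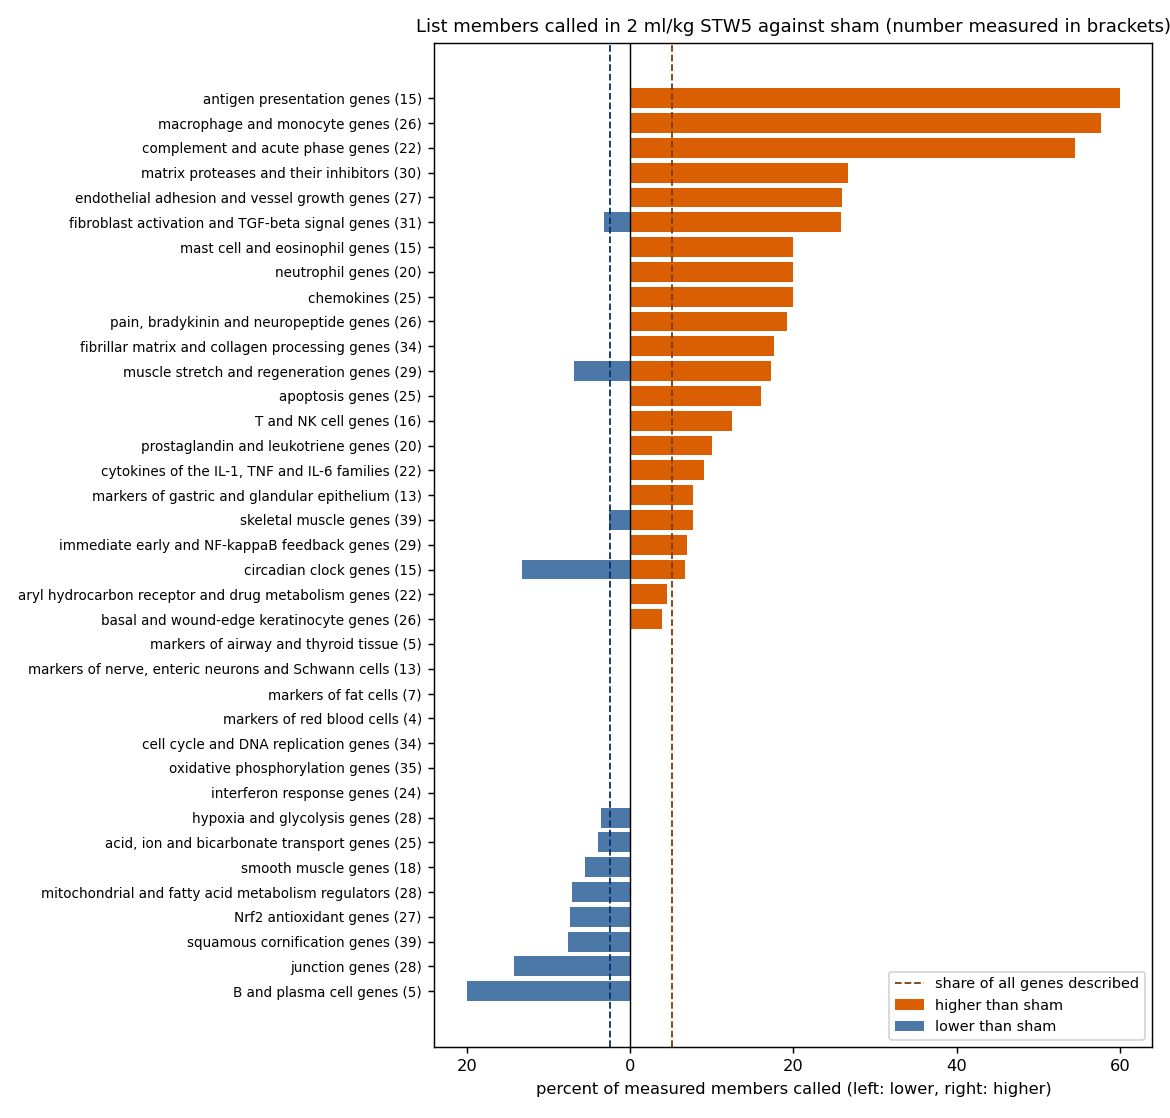
Bars give the percent of described members of each of 37 gene lists that rose (right) or fell (left) in high-dose STW5 against sham; dashed lines mark the shares over all genes, 5.07% and 2.5%. Macrophage, complement and antigen presentation genes lie far beyond the right line. Junction (4 of 28) and cornification genes (3 of 39) lie beyond the left line. So do other lists, among them clock (2 of 15), Nrf2 (2 of 27), fatty acid (2 of 28) and muscle stretch genes (2 of 29).

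Genes of leukocytes and of chemotactic signals were among the 12 largest rises with separate groups. Retnlg, which encodes a resistin-like protein of granulocytes, read -5.67, -0.99, -4.50 and -0.78 in sham replicates 1 to 4 and 4.41, 3.06, 3.42 and 3.85 in high-dose replicates 1 to 4. It rose by 6.67 ± 1.02 (adjusted p = 0.00063), or 7.34 without sham replicate 2. Ccl11, the eosinophil chemokine eotaxin, read -4.76, -1.60, -3.01 and -2.21 in sham and 2.26, 2.21, 2.53 and 2.95 in the high-dose group. It rose by 5.38 ± 0.75 (adjusted p = 0.000269), or 5.81 without sham replicate 2. Neither gene's groups overlapped, and both calls held in all 8 fits with an array left out. Lcn2, a siderophore-binding protein of neutrophils and injured epithelium, rose by 5.03 ± 1.11 (adjusted p = 0.0116), a call lost without high-dose replicate 4 (4.58, adjusted p = 0.0505). Spon1, a secreted matrix protein, rose by 3.47 ± 0.56 (adjusted p = 0.00108) and by 2.37 on its other probe. The lectin receptor gene Clec4a2 of myeloid cells rose by 3.72 ± 0.75 (adjusted p = 0.00667). Dio2, the enzyme that activates thyroid hormone, was not well above background on any sham array and was at least 12.9-fold higher (adjusted p = 0.00667), a call lost with normexp (adjusted p = 0.212). Each such bound compares the mean of the high-dose arrays with the background level of the sham arrays, or the reverse for a fall. It applies to the data as processed here. It is not a minimum under the 4 other scalings and background settings (quantile, median, normexp and a floor at background). There the change of such a gene could be smaller, for Dio2 as low as 1.09.

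**Figure D3:**
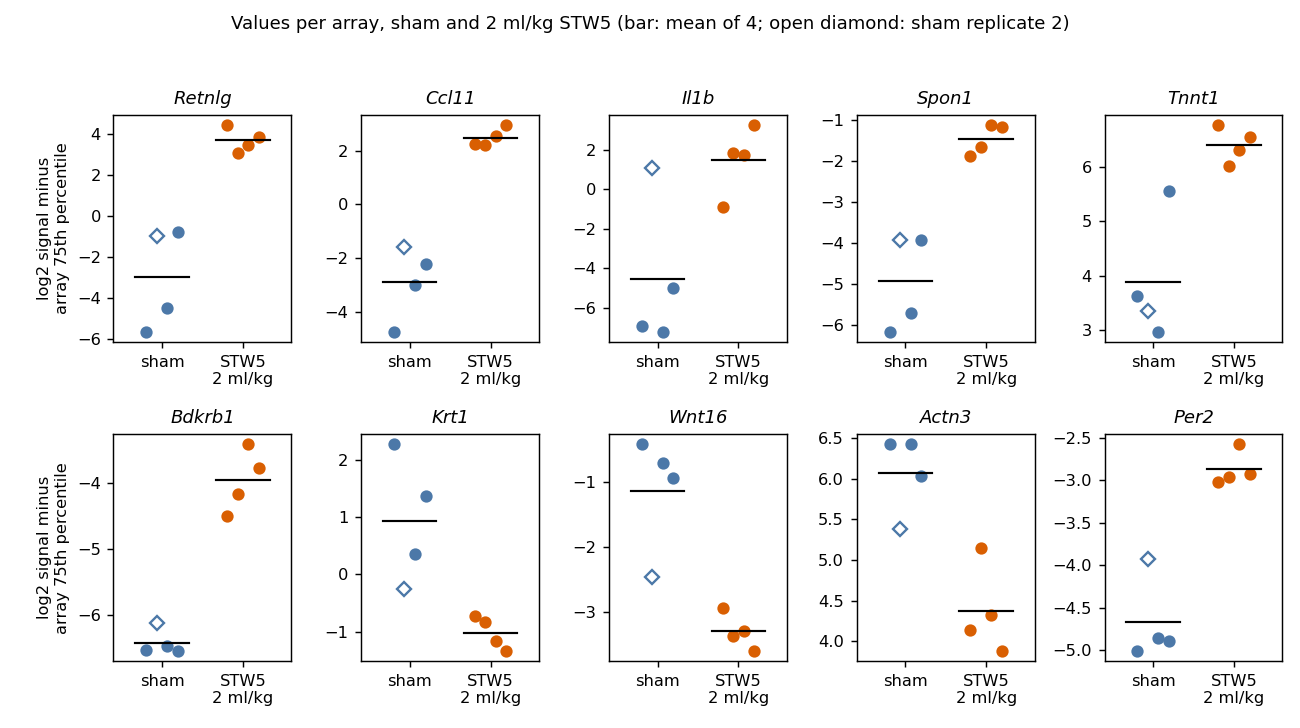
Points are arrays, with the log2 level relative to the array's 75th percentile on the vertical axis and bars at the mean of the 4 arrays of each group; the open diamond is sham replicate 2. Retnlg and Ccl11 lie wholly above sham, Wnt16 and Actn3 wholly below it, and Il1b overlaps through sham replicate 2 (1.08).

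Of 25 chemokine genes described, the secreted guides of leukocytes, 5 rose and 0 fell (5.07% of all genes rose). The median change of the list was 1.32 against -0.10 over all genes, and with normexp it was 0.79 with 3 rises. The count was 8 without sham replicate 2 and 2 to 8 over the fits with 1 array left out, lowest without sham replicate 1. Ccl7, a monocyte chemokine, read -3.76, -2.56, -5.22 and -3.65 in sham and -1.87, -0.45, 0.00 and 0.09 in the high-dose group, with no overlap. It rose by 3.24 ± 0.78 (adjusted p = 0.0191), a call lost without sham replicates 1 or 3 or high-dose replicates 3 or 4 (adjusted p up to 0.0748). Cxcl12, made by stromal cells, read 0.33, 0.70, 0.33 and 0.84 in sham and 2.30, 1.84, 2.13 and 2.17 in the high-dose group. It rose by 1.56 ± 0.32 (adjusted p = 0.00788), a call that held in all 8 fits. The other members that rose, Ccl4 (at least 2.24-fold, adjusted p = 0.0362; 0.0537 without sham replicate 2) and Cxcl9 (1.5 ± 0.42, adjusted p = 0.0359), are named after their values were seen. The neutrophil chemokines Cxcl1 and Cxcl2 were higher by 4.60 ± 1.44 and 4.63 ± 2.22 but did not pass the test (adjusted p = 0.0561 and 0.192). Without sham replicate 2 they stood at 5.84 and 6.21 (adjusted p = 0.0143 and 0.0839), and Cxcl1 passed in that fit alone of the 8. Cxcl2 read -7.22, 0.72, -7.17 and -2.32 in sham, so the sham arrays spread over most of the range of the gene. In untreated oesophagitis 15 of the 25 rose (15.1% of all genes) and the median was 1.76. Ccl2, the monocyte attractant, was lower in the high-dose group than in untreated tissue by 3.04 ± 0.78 (adjusted p = 0.0229) and stood at 1.32 ± 0.78 against sham (adjusted p = 0.29).

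Most inflammatory cytokine genes did not pass the test, which does not show that they were at sham level. Of 22 described members of the IL-1, TNF and IL-6 families and their feedback genes, 2 rose and 0 fell (5.07% and 2.5% over all genes), with 4 without sham replicate 2 and 0 to 4 over the fits with 1 array left out. The median change was 0.11, and -0.01, -0.20 and -0.12 with median scaling, normexp and a floor at background, so no direction is given for the list. Il1b, the secreted alarm cytokine of myeloid cells, read -6.94, 1.08, -7.22 and -4.97 in sham and -0.87, 1.83, 1.73 and 3.26 in the high-dose group. Only sham replicate 2 lay within the high-dose range. The rise was 6.0 ± 1.62 (adjusted p = 0.032) with all arrays and 7.87 without sham replicate 2, and the call was lost without sham replicates 1 or 3 or high-dose replicates 2, 3 or 4 (adjusted p up to 0.113). Il18, a cytokine stored in epithelium, rose by 1.09 ± 0.26 (adjusted p = 0.0167), a call lost without sham replicate 3 or high-dose replicate 4 (adjusted p up to 0.0688). Tnf stood at 1.41 ± 0.70 (adjusted p = 0.206) and Socs3, the feedback inhibitor of IL-6 signalling, at 1.82 ± 0.62 (adjusted p = 0.0777; 0.0427 at 2.18 without sham replicate 2). Further values that missed the threshold were large in both directions: Il24 stood at 4.61 ± 2.16 (adjusted p = 0.183), Il36b at -1.31 ± 0.43 with separate groups (adjusted p = 0.0648) and Il36g at -1.26 ± 0.62 (adjusted p = 0.205). Il24 and Il36g are named after their values were seen, and Il24 passed without sham replicate 2 (6.61, adjusted p = 0.0453). Il6 was not well above background on any sham array, and its high-dose mean lay at least 1.25-fold above that level without passing the test (adjusted p = 0.578). Tnf was lower than in untreated tissue by 2.83 ± 0.70 (adjusted p = 0.0195). In untreated tissue 10 of the 22 rose and 2 fell (15.1% and 17.9% of all genes).

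Of 20 neutrophil genes described, 4 rose and 0 fell (5.07% of all genes rose), with 9 without sham replicate 2 and 1 to 9 over the fits with 1 array left out. The median change was 2.05, but 1.19 with a floor at background (3 rises) and 0.40 with normexp (2 rises). The alarmins S100a8 and S100a9, the most abundant proteins of neutrophil cytosol, were higher by 4.28 ± 1.84 and 4.84 ± 1.95 (adjusted p = 0.151 and 0.127). S100a9 read -4.07, 4.49, -4.35 and -3.25 in sham and 1.59, 3.08, 3.15 and 4.35 in the high-dose group. Sham replicate 2 was the highest of all 8 arrays, and without it the change was 6.93 (adjusted p = 0.016), and that of S100a8 was 6.24 (adjusted p = 0.0207). Over the 8 fits with an array left out both genes passed the test in that fit alone. Besides Retnlg and Lcn2, the ficolin gene Fcnb of granules rose by 3.49 ± 0.99 (adjusted p = 0.0392, named after its value was seen). In untreated tissue 15 of the 20 rose (15.1% of all genes), with a median of 4.43.

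Of 26 macrophage and monocyte genes described, 15 rose and 0 fell (5.07% of all genes rose), and the median change was 1.68. The count was 17 without sham replicate 2 and 2 to 17 over the fits with 1 array left out, lowest without sham replicate 1. The mannose receptor gene Mrc1 read -6.12, -4.36, -5.31 and -5.27 in sham and -4.04, -3.21, -2.93 and -3.34 in the high-dose group. It rose by 1.88 ± 0.35 (adjusted p = 0.00406). Clec4a3, a lectin receptor of monocytes, read -3.44, -1.04, -3.07 and -2.17 in sham and -0.46, 0.65, 0.96 and 1.02 in the high-dose group. It rose by 2.97 ± 0.52 (adjusted p = 0.00234). The groups of both genes were separate and both calls held in all 8 fits. Cd163, the haemoglobin scavenger receptor, rose by 2.46 ± 0.61 (adjusted p = 0.0218), and Fcer1g, the shared signalling chain of Fc receptors, by 2.23 ± 0.56 (adjusted p = 0.0234). Their calls were lost without sham replicates 1 or 3 or high-dose replicates 3 or 4, and that of Cd163 also without high-dose replicate 2 (adjusted p up to 0.0851 and 0.0898). The largest rise among the 15, chosen after its value was seen, was that of osteopontin, Spp1, at 5.76 ± 1.47 (adjusted p = 0.0247), with -7.21, 1.05, -7.03 and -4.96 in sham and 0.53, 1.12, 1.38 and 1.86 in the high-dose group. Sham replicate 2 again lay inside the high-dose range. Cd68, a lysosomal protein of macrophages, was higher by 1.46 ± 0.47 with separate groups and missed the threshold (adjusted p = 0.0629; 0.0452 without sham replicate 2), and the endotoxin co-receptor Cd14 stood at 1.31 ± 0.52 (adjusted p = 0.122). In untreated tissue 25 of the 26 rose (15.1% of all genes) with a median of 2.91, and 7 were lower in the high-dose group than there (4.39% of all genes). In bulk tissue, fewer cells of a type and less RNA per cell cannot be told apart.

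Of 22 complement and acute phase genes described, 12 rose and 0 fell (5.07% of all genes rose), with 14 without sham replicate 2 and 3 to 16 over the fits with 1 array left out, lowest without sham replicate 1. The median change was 1.93, against 2.30 in untreated tissue over the same sham arrays, where 15 rose (15.1% of all genes). In the high-dose group 0 were lower and 0 higher than in untreated tissue (4.39% and 4.06% of all genes). A2m, a broad protease trap of plasma, read -3.47, -0.86, -1.75 and -1.89 in sham and 0.20, 1.24, 1.53 and 1.42 in the high-dose group. It rose by 3.09 ± 0.53 (adjusted p = 0.00191). C3ar1, the receptor of the complement fragment C3a, rose by 2.46 ± 0.53 (adjusted p = 0.0100), and Serping1, the C1 inhibitor, by 2.00 ± 0.45 (adjusted p = 0.0125). Those 3 calls held in all 8 fits. Complement C3 itself read -5.33, -0.73, -5.08 and -0.26 in sham and -0.45, 1.72, 2.13 and 1.89 in the high-dose group, with overlap through sham replicate 4. It rose by 4.17 ± 1.09 (adjusted p = 0.0275). Haptoglobin, Hp, rose by 3.18 ± 0.82 (adjusted p = 0.0254) and the protease inhibitor gene Serpina3n by 3.61 ± 0.85 (adjusted p = 0.0168). These calls were lost in several fits, among them those without sham replicates 1 or 3 or high-dose replicate 4 (adjusted p up to 0.105, 0.093 and 0.0647).

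Of 15 antigen presentation genes, 9 rose, and at least 5 were called whichever array was left out. MHC class II molecules show peptides to CD4 T cells; the invariant chain Cd74 guards their groove, RT1-DM loads the peptide, and the coactivator Ciita turns the class II genes on. In the list 0 fell (5.07% of all genes rose and 2.5% fell), with 10 rises without sham replicate 2 and 5 to 10 over the fits with 1 array left out, and the count was 9 under each of the 4 other scalings and background settings. Ciita acts through boxes in class II promoters, and not every promoter searched here held both motifs. Those of the 3 members that did are shown from 130 to 21 bases before the RefSeq start in GRCr8. The X box core (AG, any 2 bases, AC, any base, GATG) and then the Y box (CTGATTGG) are in capitals.
RT1-Da, chr20:4515285-4515394, plus strand: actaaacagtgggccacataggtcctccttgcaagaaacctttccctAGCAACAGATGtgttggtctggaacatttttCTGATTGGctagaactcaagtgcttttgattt
RT1-Db1, chr20:4560183-4560292, minus strand: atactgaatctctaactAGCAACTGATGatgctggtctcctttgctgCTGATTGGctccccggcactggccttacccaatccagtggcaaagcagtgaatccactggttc
RT1-Bb, chr20:4604139-4604248, minus strand: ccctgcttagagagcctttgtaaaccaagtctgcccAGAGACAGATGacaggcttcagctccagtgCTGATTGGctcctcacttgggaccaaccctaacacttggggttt
Both strands of each whole promoter sequence were searched, of which the 110 bases shown are a part, and the motifs do not overlap. The X box core was found in 318 of 33469 RefSeq promoters (0.95%), the Y box in 1172 (3.5%) and both in 8 (0.0239%). The X box lay 83, 113 and 94 bases and the Y box 52, 83 and 64 bases before the starts of RT1-Da, RT1-Db1 and RT1-Bb. RT1-Ba held the Y box only, and RT1-DMa and Cd74 held neither as an exact match in the searched sequence. Near matches were not sought, so these genes may hold boxes that differ in a letter. A match is a description of the letters and not evidence of binding.

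The alpha chain gene RT1-Da read -0.35, 1.54, 0.51 and 1.29 in sham and 2.56, 2.98, 3.14 and 3.65 in the high-dose group. It rose by 2.33 ± 0.41 (adjusted p = 0.00209), or 2.60 without sham replicate 2. RT1-Bb, the beta chain of the other class II molecule, read 0.23, 2.29, 0.93 and 1.64 in sham and 3.01, 3.55, 3.91 and 4.02 in the high-dose group. Every high-dose array thus lay above every sham array in both genes. RT1-Bb rose by 2.35 ± 0.40 (adjusted p = 0.00159), RT1-Db1 by 1.90 ± 0.39 (adjusted p = 0.007) and Cd74 by 2.04 ± 0.43 (adjusted p = 0.00838). Ciita read -5.72, -5.25, -6.15 and -7.35 in sham, where 1 array was well above background, and -4.40, -3.86, -3.13 and -2.82 in the high-dose group. It rose by 2.57 ± 0.48 (adjusted p = 0.00361). Those 5 calls held in all 8 fits, with adjusted p at most 0.0381. RT1-DMb, a chain of the peptide loader, rose by 1.51 ± 0.37 (adjusted p = 0.0195), a call lost without sham replicates 1 or 3 or high-dose replicates 3 or 4 (adjusted p up to 0.0749). Set beside untreated tissue, RT1-Da, RT1-Bb and Cd74 differed by 0.04 ± 0.41, 0.26 ± 0.40 and -0.06 ± 0.43 (adjusted p = 0.957, 0.699 and 0.945), which does not show that the groups were alike. RT1-DMb was lower than in untreated tissue by 1.24 ± 0.37 (adjusted p = 0.0431). Ciita was 1.45 ± 0.48 higher there, short of the threshold (adjusted p = 0.0617). Interferon response genes, which share inducers with class II, gave 0 rises and 0 falls of 24 (5.07% and 2.5% over all genes). There were 0 to 3 rises over the fits with 1 array left out. Ifit3 stood at 3.06 ± 0.97 (adjusted p = 0.0594, and 0.00918 at 4.02 without sham replicate 2) and Gbp2 at 1.45 ± 0.48 (adjusted p = 0.070). In the limma fit 8 of the 24 had an unadjusted p under 0.05, all of them higher.

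**Figure D4:**
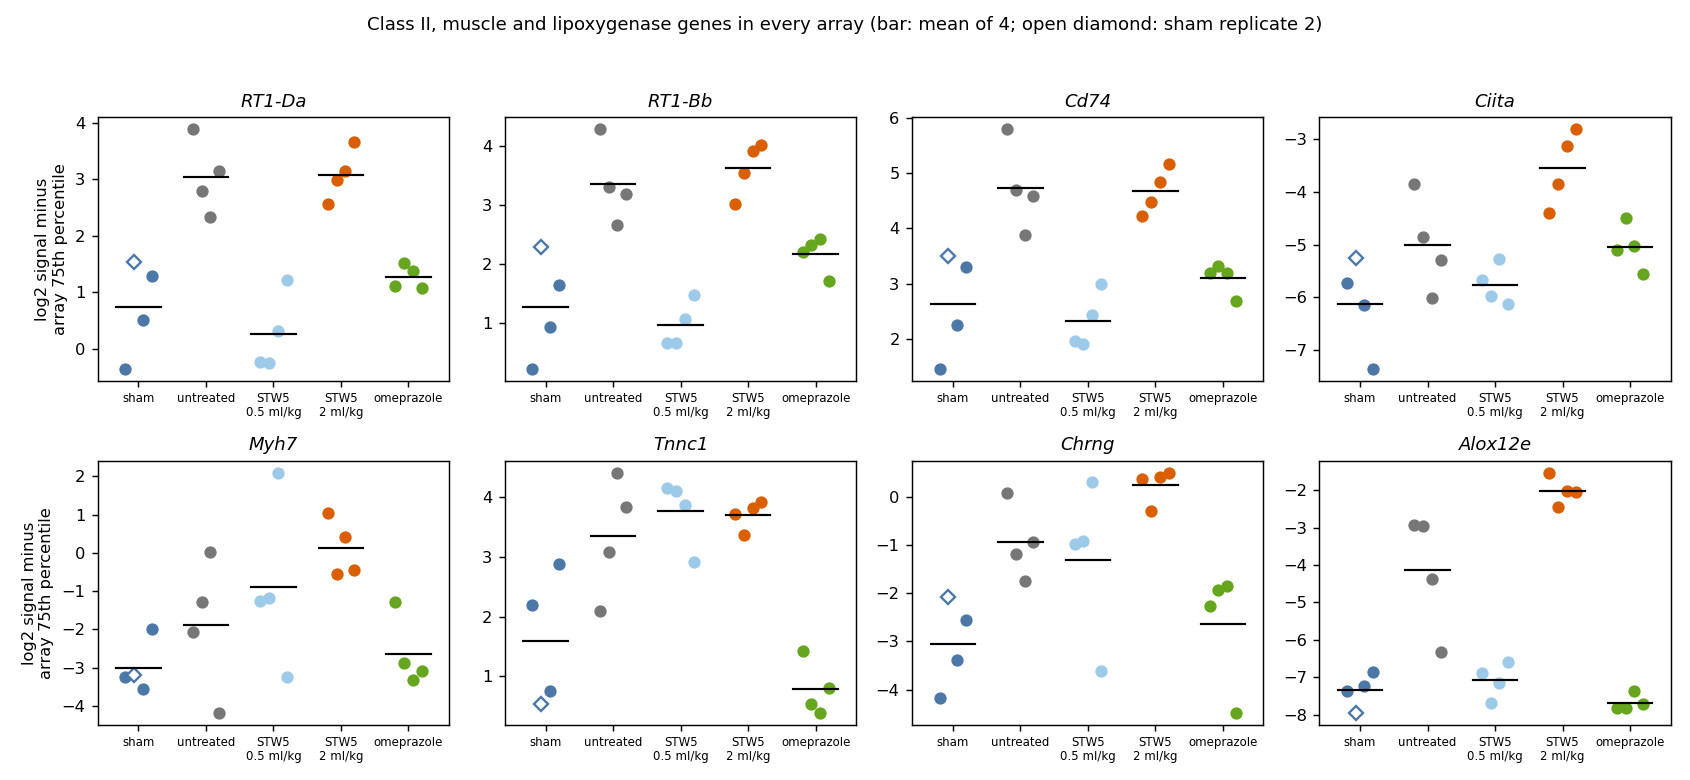
Points are arrays in all 5 groups and the vertical axis is the log2 level relative to the array's 75th percentile. The class II genes RT1-Da, RT1-Bb and Cd74 are higher in every high-dose array than in every sham array, and Alox12e reaches -2.46 to -1.55 in the high-dose group against -7.94 to -6.86 in sham.

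Of 16 T and NK cell genes 2 rose and 0 fell (5.07% of all genes rose). The count was 7 without sham replicate 2, 0 in the fit without sham replicate 1, and 0 with normexp or a floor at background. The median change was 1.36, but 0.33 with a floor at background and 0.04 with normexp. Cd3g, a chain of the T cell receptor complex, read -5.92, -2.39, -6.27 and -5.23 in sham and -2.79, -2.32, -2.18 and -1.80 in the high-dose group. Sham replicate 2 lay inside the high-dose range. Cd3g stood at 2.68 ± 0.79 (adjusted p = 0.0452) and the IL-7 receptor gene Il7r at 1.95 ± 0.59 (adjusted p = 0.0488), and each kept its call only in the fit without sham replicate 2 (adjusted p up to 0.147 and 0.152). The co-receptor genes Cd4 and Cd8a stood at 1.48 ± 0.54 and 0.06 ± 0.62 (adjusted p = 0.0933 and 0.965), and Cd4 at 1.85 without sham replicate 2 (adjusted p = 0.0409). Among 5 B and plasma cell genes 1 fell (0 to 2 over the fits with 1 array left out), against 2.5% of all genes. This was Tnfrsf17, the BCMA receptor of plasma cells, by 1.98 ± 0.48 (adjusted p = 0.0192). Its call was lost without sham replicates 1 or 3 or high-dose replicates 3 or 4 (adjusted p up to 0.0697).

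Of 15 genes of mast cells and eosinophils, 3 rose and 0 fell (5.07% of all genes rose), with 1 to 3 over the fits with 1 array left out, and the median change was 0.41 (-0.17 with normexp). Ccr3, the eotaxin receptor of eosinophils, read -7.31, -7.79, -7.73 and -5.76 in sham and -2.98, -4.63, -4.05 and -3.38 in the high-dose group. No sham array was well above background. The high-dose mean of Ccr3 exceeded that background at least 5.97-fold as processed here (adjusted p = 0.000323), a call that held in all 8 fits. Over the 4 other scalings and background settings the smallest change of Ccr3 was 0.66 (adjusted p at most 0.0279). Its ligand Ccl11 rose as given above. Siglec5, a lectin of granulocytes, exceeded sham at least 3.0-fold (adjusted p = 0.0156), and the IL-33 receptor gene Il1rl1, used by mast cells and eosinophils, rose by 3.40 ± 0.99 (adjusted p = 0.0438), while its other probe gave 0.49. The calls of Siglec5 and Il1rl1 were lost with normexp (adjusted p = 0.488 and 0.0773) and without sham replicates 1 or 3 or high-dose replicates 3 or 4 (up to 0.0647 and 0.138), and that of Il1rl1 also without sham replicate 4 or high-dose replicate 2. The other 12 members did not pass the test. The mast cell protease gene Cpa3 stood at -0.05 ± 0.77 (adjusted p = 0.978), Kit at 0.51 ± 0.36 (adjusted p = 0.373) and the IgE receptor chain Fcer1a at 0.41 ± 0.80 (adjusted p = 0.775). The mast cell tryptase gene Tpsab1 was higher by 1.80 ± 0.60 with separate groups (adjusted p = 0.0676), its relative Tpsb2 stood at 0.92 ± 0.63 (adjusted p = 0.36) and the eosinophil granule gene Prg2 at 0.12 ± 0.29 (adjusted p = 0.824); these 3 are named after their values were seen.

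Of 30 matrix proteases and their inhibitors described, 8 rose and 0 fell (5.07% of all genes rose), with 10 without sham replicate 2 and 4 to 10 over the fits with 1 array left out, and the median change was 1.13 (0.35 with normexp, with 6 rises). Mmp2, the gelatinase of fibroblasts, read 2.22, 3.71, 3.26 and 3.61 in sham and 4.83, 4.85, 5.27 and 5.16 in the high-dose group. It rose by 1.82 ± 0.35 (adjusted p = 0.00481). Mmp14, the membrane protease that activates it, read 0.51, 2.90, 1.88 and 2.20 in sham and 3.54, 3.49, 3.94 and 4.12 in the high-dose group, and rose by 1.90 ± 0.42 (adjusted p = 0.012). The groups of both genes were separate and both calls held in all 8 fits. The stromelysins Mmp3 and Mmp10 rose by 2.94 ± 0.66 and 3.33 ± 0.76 (adjusted p = 0.0125 and 0.0138). Each was well above background on 1 sham array, and Mmp3 lost its call with normexp (adjusted p = 0.17), Mmp10 without sham replicate 3 (adjusted p = 0.0551). Timp1 rose by 2.60 ± 0.72 (adjusted p = 0.0362), a call lost without sham replicates 1 or 3 or high-dose replicates 2, 3 or 4 (adjusted p up to 0.128). The collagenase Mmp13 read -7.30, -2.17, -7.46 and -7.71 in sham and -3.20, -1.22, -1.04 and -0.44 in the high-dose group, and stood at 4.68 ± 1.44 (adjusted p = 0.0525). Without sham replicate 2 its change was 6.01 (adjusted p = 0.0104); it was 1.86 with normexp (adjusted p = 0.102) and passed the test with quantile and median scaling. Against untreated tissue Mmp2 and Mmp14 differed by 0.03 ± 0.35 and -0.33 ± 0.42 (adjusted p = 0.963 and 0.644), while 8 of the 30 were lower in the high-dose group (4.39% of all genes).

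Collagen processing and fibroblast activation genes rose in part, and the fibrillar collagens themselves did not pass the test. Of 34 fibrillar matrix genes 6 rose and 0 fell (5.07% of all genes rose; 10 without sham replicate 2; 0 to 10 over the fits with 1 array left out, lowest without sham replicate 1), with a median of 0.70. Tenascin C, Tnc, rose by 2.37 ± 0.61 (adjusted p = 0.0258), the collagen modifier Plod2 by 0.93 ± 0.25 (adjusted p = 0.0287), the crosslinking oxidase Lox by 1.59 ± 0.45 (adjusted p = 0.0387) and Cthrc1, a secreted protein of injured vessels and fibroblasts, by 3.07 ± 0.71 (adjusted p = 0.0151). All 4 calls were lost without sham replicates 1 or 3, and those of Tnc, Plod2 and Lox also without high-dose replicates 3 or 4 (adjusted p up to 0.0961, 0.105, 0.132 and 0.0607). That of Plod2 was lost under 1 of the 4 other scalings and background settings as well (adjusted p = 0.0597). The collagen I gene Col1a1 read 4.10, 6.10, 6.15 and 6.13 in sham and 6.37, 5.97, 6.25 and 6.35 in the high-dose group. Only sham replicate 1 stood apart, and the change was 0.61 ± 0.42 (adjusted p = 0.36); Col3a1 stood at 0.16 ± 0.28 (adjusted p = 0.739). Of 31 fibroblast and TGF-beta signal genes 8 rose and 1 fell (5.07% and 2.5% over all genes; 10 and 0 without sham replicate 2; 2 to 10 rises and 0 falls over the fits with 1 array left out). Grem1, a secreted BMP antagonist, read -0.17, 1.07, -0.01 and 0.28 in sham and 2.24, 2.42, 2.40 and 2.67 in the high-dose group, and rose by 2.14 ± 0.45 (adjusted p = 0.00906). The transcription factor gene Snai1 rose by 3.15 ± 0.61 (adjusted p = 0.00491). Both calls held in all 8 fits. Ccn2, a TGF-beta target, rose by 1.26 ± 0.30 (adjusted p = 0.0178), a call lost without sham replicates 1 or 3 or high-dose replicate 3 (adjusted p up to 0.066). The homeobox gene Meox1 rose by 1.36 ± 0.35 with separate groups (adjusted p = 0.0258; up to 0.0939 with an array left out, lost in 4 of 8 fits). The 1 that fell was Fst, a binder of activin, by 0.81 ± 0.23 (adjusted p = 0.0405; 0.0688 without sham replicate 2; named after its value was seen). Tgfb1 itself stood at 0.78 ± 0.38 (adjusted p = 0.193), and smooth muscle actin Acta2, the mark of myofibroblasts and of muscle, at -0.02 ± 0.39 (adjusted p = 0.983).

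Tcf21, a transcription factor of mesenchymal cells and fibroblasts, had the lowest adjusted p of the named genes. It read -7.11, -7.85, -6.77 and -7.04 in sham, none well above background, and -3.62, -3.70, -3.47 and -3.70 in the high-dose group. That is at least 8.18-fold higher as processed here (adjusted p = 3.49e-06), a call that held in all 8 fits. The smallest change over the 4 other scalings and background settings was 0.62 (adjusted p at most 0.0156). Tcf21 was also higher than in untreated tissue, by 2.65 ± 0.34 (adjusted p = 8.66e-05). The omeprazole arrays, which share the slide, read -4.80, -5.34, -5.15 and -4.56, and untreated replicate 3 at -5.26 kept the gene just outside the rule for setting genes aside. Slide and treatment cannot be told apart for it.

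Of 27 endothelial adhesion and vessel growth genes described, 7 rose and 0 fell (5.07% of all genes rose; 9 without sham replicate 2; 1 to 9 over the fits with 1 array left out, lowest without sham replicate 1), with a median of 0.82 (0.48 with normexp). Sele, the E-selectin that captures leukocytes on activated endothelium, read -7.20, -5.33, -7.62 and -7.67 in sham, where 1 array was well above background, and -4.54, -3.58, -3.96 and -3.66 in the high-dose group. It rose by 3.02 ± 0.50 (adjusted p = 0.00128), a call that held in all 8 fits. Icam1, the leukocyte adhesion ligand, rose by 1.10 ± 0.32 (adjusted p = 0.0435; 0.0527 with median scaling), Esam by 1.31 ± 0.31 (adjusted p = 0.0175), Plvap, a protein of vessel pores, by 1.42 ± 0.39 (adjusted p = 0.0358) and the apelin receptor gene Aplnr by 1.09 ± 0.31 (adjusted p = 0.0375; 0.0699 with normexp). These 4 calls were lost without sham replicates 1 or 3 or high-dose replicates 3 or 4, among others (adjusted p up to 0.152, 0.0656, 0.116 and 0.117). Icam1 was lower than in untreated tissue by 1.34 ± 0.32 (adjusted p = 0.0164).

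Epithelial genes of late differentiation were lower, and few passed the test. Of 39 squamous cornification genes 3 fell and 0 rose (2.5% of all genes fell), and the median change was -0.88. In 13 of the 39 all high-dose arrays lay below all sham arrays, against 8.51% of all genes. The count of falls was 2 without sham replicate 2 and 0 to 10 over the fits with 1 array left out. It was 4, 5 and 8 with quantile scaling, normexp and median scaling. Krt1, a keratin of the upper layers, read 2.27, -0.25, 0.35 and 1.37 in sham and -0.73, -0.83, -1.17 and -1.34 in the high-dose group. It fell by 1.95 ± 0.57 (adjusted p = 0.0437). Klk8, a protease of shedding, fell by 1.15 ± 0.33 (adjusted p = 0.0416; 0.061 with quantile scaling) and Aloxe3, a lipoxygenase of the cornified lipid barrier, by 1.31 ± 0.39 (adjusted p = 0.0468). The 3 groups of arrays were separate, but the calls were lost without most single arrays, those of Krt1 in 7 of 8 fits (adjusted p up to 0.155), Klk8 in 6 (0.146) and Aloxe3 in 7 (0.163), each including sham replicates 1 and 3 and all 4 high-dose replicates. Keratin 13, Krt13, stood at -0.84 ± 0.31 (adjusted p = 0.104) and filaggrin, Flg, at -1.58 ± 0.95 (adjusted p = 0.297). In untreated tissue 29 of the 39 fell (17.9% of all genes) with a median of -1.44. Outside the lists, Ly6d, a surface protein of squamous cells, read 4.37, 3.37, 4.10 and 3.91 in sham and 1.41, 1.51, 1.32 and 2.64 in the high-dose group and fell by 2.21 ± 0.50 (adjusted p = 0.0128). The signalling ligand gene Wnt16 read -0.42, -2.47, -0.71 and -0.94 in sham and -2.94, -3.38, -3.30 and -3.61 in the high-dose group and fell by 2.17 ± 0.44 (adjusted p = 0.00661). Both calls held in all 8 fits.

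Of 26 basal and wound-edge keratinocyte genes described 1 rose, the matrix gene Tnc given above, and 0 fell (5.07% and 2.5% over all genes). Over the fits with 1 array left out there were 0 to 1 rises and 0 to 1 falls. The median change was -0.09. Krt5 and Krt14, the keratin pair of the basal layer, stood at -0.64 ± 0.41 and 0.17 ± 0.59 (adjusted p = 0.328 and 0.881). Of 28 junction genes 4 fell and 0 rose (2.5% of all genes fell; 1 to 9 falls over the fits with 1 array left out, 8 with median scaling or normexp), with a median of -0.69. Tjp3, a scaffold of tight junctions, read 0.98, 0.25, 0.75 and 0.16 in sham and -0.63, -0.36, -0.43 and -0.33 in the high-dose group, with no overlap. It fell by 0.97 ± 0.26 (adjusted p = 0.0288), tricellulin, Marveld2, by 0.92 ± 0.24 (adjusted p = 0.0252) and the polarity gene Pard3 by 0.65 ± 0.19 (adjusted p = 0.0423, named after its value was seen). The calls of Tjp3 and Marveld2 were lost without sham replicates 1 or 3 or high-dose replicates 3 or 4, among others (adjusted p up to 0.105 and 0.0949). Claudin 1, Cldn1, and occludin, Ocln, stood at -0.38 ± 0.39 and 0.13 ± 0.25 (adjusted p = 0.547 and 0.777), and Ocln was higher than in untreated tissue by 1.03 ± 0.25 (adjusted p = 0.0195). Slc26a9, a chloride and bicarbonate transporter, was the 1 of 25 acid and ion transport genes that fell (1 to 2 over the fits with 1 array left out), against 2.5% of all genes. It fell by 1.28 ± 0.22 (adjusted p = 0.00185), from -2.42, -3.46, -2.79 and -3.46 to -4.41, -4.29, -4.03 and -4.53.

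The lipoxygenase gene Alox12e, an epidermal enzyme acting on arachidonic acid, had the lowest adjusted p of the named genes after Tcf21. It read -7.37, -7.94, -7.22 and -6.86 in sham, none well above background, and -1.55, -2.46, -2.03 and -2.05 in the high-dose group. That is at least 24.1-fold higher as processed here (adjusted p = 4.6e-06). The smallest change over the 4 other scalings and background settings was 1.84 (adjusted p at most 2.42e-05). Alox12e was higher than in untreated tissue by 2.13 ± 0.52 (adjusted p = 0.0195), while the omeprazole arrays on the same slide averaged -7.68 and the 0.5 ml/kg arrays -7.08. Among 20 prostaglandin and leukotriene genes 2 rose and 0 fell (5.07% of all genes rose; 0 to 3 rises over the fits with 1 array left out). They were the receptor gene Ptger2 (at least 1.81-fold as processed here, adjusted p = 0.0392) and the thromboxane synthase gene Tbxas1 (1.18 ± 0.35, adjusted p = 0.0453). Ptger2 turned to -0.05 with normexp and with a floor at background, and the call of Tbxas1 was lost with median scaling (adjusted p = 0.0561). Each call was lost in 6 of 8 fits, among them those without sham replicates 1 or 3 or high-dose replicates 2, 3 or 4 (adjusted p up to 0.114 and 0.158). Cyclooxygenase 2, Ptgs2, read -6.81, -2.95, -6.12 and -7.51 in sham and -6.61, -4.27, -4.43 and -2.27 in the high-dose group and stood at 1.45 ± 1.08 (adjusted p = 0.405).

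Few striated muscle genes passed the test. Of 39 described 3 rose and 1 fell, near the shares over all genes (5.07% and 2.5%). The counts were 2 and 1 without sham replicate 2, with 1 to 4 rises over the fits with 1 array left out, lowest without sham replicate 3, and the median was -0.30. Tnnt1, slow troponin T, read 3.63, 3.36, 2.97 and 5.56 in sham and 6.76, 6.01, 6.30 and 6.54 in the high-dose group, with no overlap. It rose by 2.52 ± 0.52 (adjusted p = 0.00768), a call that held in all 8 fits. Slow troponin C, Tnnc1, rose by 2.11 ± 0.51 (adjusted p = 0.0191) and slow myosin, Myh7, by 3.12 ± 0.94 (adjusted p = 0.049). The call of Tnnc1 was lost without sham replicate 3 or high-dose replicates 3 or 4 (adjusted p up to 0.0741) and that of Myh7 in 7 of 8 fits, all but the fit without sham replicate 4 (adjusted p up to 0.133, and 0.0707 without sham replicate 2). Outside the list, Myh6, the alpha cardiac myosin, rose by 3.89 ± 1.03 (adjusted p = 0.0292; up to 0.0932 with an array left out, lost without sham replicates 1 or 3 or high-dose replicates 1, 3 or 4). Its probe could share signal with Myh7, whose sequence is very similar. The fast fibre gene Actn3 read 6.42, 5.38, 6.42 and 6.03 in sham and 4.14, 5.15, 4.32 and 3.88 in the high-dose group. It fell by 1.69 ± 0.37 (adjusted p = 0.0107), a call that held in all 8 fits, and the fast myosin Myh4 stood at 0.06 ± 0.35 (adjusted p = 0.932). The omeprazole arrays averaged 3.27 for Tnnt1 and 0.79 for Tnnc1 on the same slide, and the untreated arrays 5.31 and 3.35. In untreated tissue 3 of the 39 rose and 20 fell (15.1% and 17.9% of all genes).

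Of 29 genes of stretched or regenerating muscle described 5 rose and 2 fell (5.07% and 2.5% over all genes), with the same counts without sham replicate 2 and 3 to 5 rises and 0 to 2 falls over the fits with 1 array left out. Ankrd2, a stretch sensor of the sarcomere, read -5.24, -1.64, -5.13 and -4.36 in sham and -0.42, 0.83, 1.45 and 1.19 in the high-dose group. It rose by 4.85 ± 1.06 (adjusted p = 0.0112). Its relative Ankrd1 rose by 3.93 ± 1.00 (adjusted p = 0.0248), with 1 sham array well above background and the call lost without sham replicates 1 or 3 or high-dose replicates 2, 3 or 4 (adjusted p up to 0.0931) and with normexp (0.135). Among acetylcholine receptor subunit genes, Chrng, the fetal subunit that reappears in denervated muscle, and Chrnd rose by 3.30 ± 0.73 and 2.25 ± 0.37 (adjusted p = 0.0113 and 0.00137). Chrng read -4.18, -2.07, -3.39 and -2.55 in sham and 0.38, -0.29, 0.42 and 0.50 in the high-dose group. Ankrd2, Chrng and Chrnd had separate groups and kept their calls in all 8 fits. The growth factor gene Igf1 rose by 1.46 ± 0.39 (adjusted p = 0.0294). Mss51, a mitochondrial protein of glycolytic fibres, fell by 1.98 ± 0.44 (adjusted p = 0.0114; 0.0519 without high-dose replicate 4), and Otud1 fell by 0.77 ± 0.22 (adjusted p = 0.037). Igf1 and Otud1 are named after their values were seen. Myogenin, Myog, stood at 0.25 ± 0.32 (adjusted p = 0.642). Of 18 smooth muscle genes 1 fell (0 to 1 over the fits with 1 array left out), against 2.5% of all genes. This was the muscarinic receptor gene Chrm2, by 1.43 ± 0.41 (adjusted p = 0.0394). Its call was lost in 6 of 8 fits with an array left out (adjusted p up to 0.122). Markers of nerve and Schwann cells gave 0 rises and 0 falls of 13 in the limma fit (5.07% and 2.5% over all genes), with a median of -0.10. At an unadjusted p under 0.05 in that fit 1 was lower, and 0 to 1 fell over the fits with 1 array left out.

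Genes of pain and visceral signalling rose in 5 of 26 and fell in 0 (5.07% of all genes rose; 3 to 5 rises over the fits with 1 array left out), with a median of 0.70 (-0.10 with normexp, with 3 falls, and 0.32 with a floor at background). Bdkrb1, the bradykinin receptor induced by injury, read -6.53, -6.12, -6.46 and -6.54 in sham, none well above background, and -4.50, -4.17, -3.42 and -3.77 in the high-dose group. It was at least 5.15-fold higher as processed here (adjusted p = 1.75e-05). Over the 4 other scalings and background settings its smallest change was 0.44 (adjusted p at most 0.0388). The untreated mean was -3.96, and the difference from it was 0.00 ± 0.27 (adjusted p = 0.999). The gene of the neuropeptide VIP, which relaxes smooth muscle, read -2.72, 0.60, -1.78 and -1.19 in sham and 1.77, 1.17, 1.34 and 1.06 in the high-dose group, and Vip rose by 2.61 ± 0.56 (adjusted p = 0.00942). The serotonin receptor gene Htr2b rose by 2.34 ± 0.45 (adjusted p = 0.00491). Those 3 calls held in all 8 fits. The channel gene Trpv2 rose by 1.35 ± 0.37 (adjusted p = 0.0318; up to 0.113 with an array left out, lost in 6 of 8 fits). The capsaicin receptor gene Trpv1 stood at -1.05 ± 0.48 (adjusted p = 0.177) and Tac1, which encodes substance P, at 1.21 ± 0.60 (adjusted p = 0.204).

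**Figure D5:**
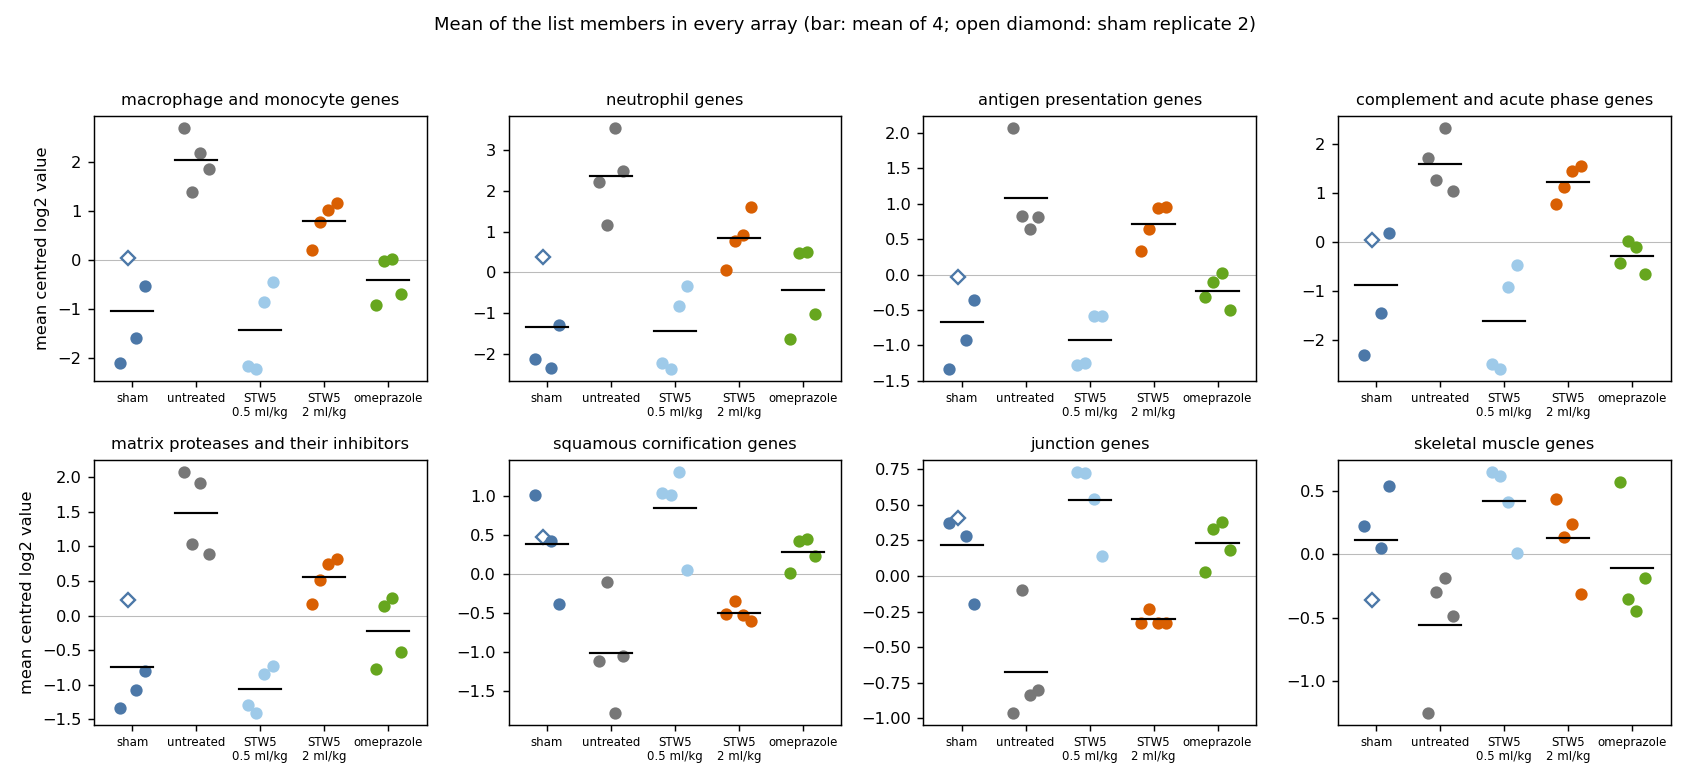
Each point is the mean over a list of centred log2 levels on 1 array, for 8 lists in the 5 groups. In the macrophage list the high-dose arrays lie at 0.22 to 1.18 and the sham arrays at -2.09 to 0.05, and in the cornification list at -0.60 to -0.35 against -0.39 to 1.01.

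Few metabolic, stress and growth genes passed the test. Over all genes 5.07% rose and 2.5% fell, and the counts against sham in this paragraph stand beside those shares. Of 35 oxidative phosphorylation genes 0 rose and 0 fell (0 to 1 falls over the fits with 1 array left out), with a median of -0.26, and at an unadjusted p under 0.05 7 were lower. In untreated tissue 19 fell (17.9% of all genes). Of 34 cell cycle genes 0 rose and 0 fell (0 to 2 rises over those fits; unadjusted p was under 0.05 for 2 that were higher and 1 that was lower), and Top2a stood at 0.04 ± 0.34 (adjusted p = 0.951). Among 28 genes of fatty acid use 2 fell (1 to 2 over those fits) and 0 rose (0 to 2). Bbox1, the last enzyme of carnitine synthesis, was at least 5.01-fold lower as processed here (adjusted p = 0.00139), from -3.55, -5.63, -3.98 and -4.72 to -6.77, -6.77, -7.92 and -6.74, none of the latter well above background. Over the 4 other scalings and background settings its smallest change was -0.76 (adjusted p at most 0.02). Its call held in all 8 fits, and Acadvl, a dehydrogenase of long fatty acids, fell by 0.69 ± 0.17 (adjusted p = 0.0212; up to 0.0826 with an array left out, lost in 4 of 8 fits). Of 27 Nrf2 targets 2 fell and 0 rose (0 to 2 falls and 0 to 1 rises over those fits), among them the NADPH enzyme gene Me1, by 0.70 ± 0.20 (adjusted p = 0.0436; 0.086 with quantile scaling), a call lost in 6 of the 8 fits (adjusted p up to 0.146). Haem oxygenase 1, Hmox1, stood at -0.36 ± 0.44 (adjusted p = 0.633) and was lower than in untreated tissue by 1.96 ± 0.44 (adjusted p = 0.0129). Egln3, an oxygen sensor, was the 1 of 28 hypoxia and glycolysis genes that fell (1 in each of those fits), by 1.73 ± 0.39 (adjusted p = 0.0125). Of the 28, 7 were lower than in untreated tissue (4.39% of all genes). The immediate early gene Egr2 rose by 1.22 ± 0.25 (adjusted p = 0.00729, and 0.412 with normexp) and the phosphatase gene Dusp6 by 0.81 ± 0.24 (adjusted p = 0.049). The call of Dusp6 was lost in 7 of 8 fits with an array left out (adjusted p up to 0.16). It was also lost under 1 of the 4 other scalings and background settings (adjusted p = 0.094). These made 2 of 29 (1 to 3 over those fits), against 16 in untreated tissue (15.1% of all genes).

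Drug metabolism, cell death and clock genes held a few further changes. Of 22 aryl hydrocarbon receptor targets and drug metabolism genes 1 rose (0 to 2 over the fits with 1 array left out), near the share over all genes (5.07%). This was Gsta2, a glutathione transferase, by 1.90 ± 0.56 (adjusted p = 0.0447). Its call was lost in 7 of 8 fits with an array left out (adjusted p up to 0.114). Cyp1a1, the classical target of that receptor, read -6.66, -3.44, -7.63 and -7.55 in sham and -3.61, -4.62, -4.37 and -4.09 in the high-dose group. Sham replicate 2 was the highest of the 8 arrays; the change was 2.14 ± 0.83 (adjusted p = 0.114) with it and 3.1 (adjusted p = 0.00906) without it, the only fit of the 8 in which it passed. With normexp the change was 0.18 (adjusted p = 0.689). Against untreated tissue Cyp1a1 was higher by 3.75 ± 0.83 (adjusted p = 0.0116). Of 25 apoptosis genes 4 rose and 0 fell (5.07% of all genes rose; 1 to 4 rises over the fits with 1 array left out). The inflammatory caspase gene Casp1 (1.23 ± 0.34, adjusted p = 0.0358), the TNF receptor gene Tnfrsf1a (0.54 ± 0.16, adjusted p = 0.0498) and the necroptosis kinase gene Ripk3 (1.77 ± 0.54, adjusted p = 0.0493) lost their calls in 5, 7 and 6 fits (adjusted p up to 0.126, 0.167 and 0.171). Of the 4 other scalings and background settings, Casp1 and Tnfrsf1a each lost the call under 1 and Ripk3 under 2 (adjusted p up to 0.055, 0.147 and 0.0612). Among 15 clock genes 1 rose and 2 fell (5.07% and 2.5% over all genes), with 1 rise and 0 to 2 falls over those fits. Per2 read -5.01, -3.93, -4.86 and -4.89 in sham and -3.02, -2.96, -2.58 and -2.93 in the high-dose group. It rose by 1.80 ± 0.25 (adjusted p = 0.000268) and kept the call in all 8 fits. Nr1d1, a clock repressor, fell by 1.95 ± 0.43 (adjusted p = 0.0112; 0.051 without high-dose replicate 4) and Clock by 0.65 ± 0.20 (adjusted p = 0.049; up to 0.157, lost in 7 of 8 fits). The hour of killing is not given in the labels.

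Further genes named for the size of their fall had no place in the lists. Angptl6, a secreted angiopoietin-like protein, was at least 2.36-fold lower as processed here (adjusted p = 0.00425), with 1 sham array and 0 high-dose arrays well above background. Over the 4 other scalings and background settings its smallest change was -0.47, and the call was lost with a floor at background (adjusted p = 0.154). Angptl6 was lower than in untreated tissue by 1.82 ± 0.34 (adjusted p = 0.00331). The water channel gene Aqp4 read 0.43, -0.39, 0.33 and 0.30 in sham and -0.91, -1.67, -1.61 and -2.28 in the high-dose group. It fell by 1.78 ± 0.44 (adjusted p = 0.0224; up to 0.0861 with an array left out, lost in 5 of 8 fits). Cryba4, a crystallin, fell by 2.16 ± 0.46 (adjusted p = 0.00942) and Fstl4, a follistatin-like protein, by 2.21 ± 0.49 (adjusted p = 0.0119; 0.0508 without sham replicate 3). Shisal2b and Plcxd2 fell by 1.91 ± 0.57 and 1.82 ± 0.46 (adjusted p = 0.0475 and 0.0225; up to 0.162 and 0.0876, lost in 7 and 4 of 8 fits). Of 13 gastric and glandular markers 1 rose (0 to 1 over the fits with 1 array left out), against 5.07% of all genes. This was the protease gene Ctse, by 1.89 ± 0.44 (adjusted p = 0.0147), a call lost without sham replicate 3 or high-dose replicate 4 (adjusted p up to 0.0607). The list's mean level ranged from -1.01 to 1.67 over the sham arrays and from -0.14 to 1.08 over the high-dose arrays, highest in replicate 4 of each. Red cell, fat and airway markers gave 0 rises and 0 falls of 4, 7 and 5 described, also at an unadjusted p under 0.05 in the limma fit and over the fits with 1 array left out.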

How the data were processed

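Each array's scanner file holds the deposited intensity of every spot, background-subtracted and detrended with Agilent Feature Extraction 10.7.3.1 per the file headers. The authors' value table, an alternative here, gives each spot as a ratio to the median of its array; how the authors chose its columns is not given in the sources used here. Per the labels' protocols, 100 ng of total RNA was amplified and labelled per sample.

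Here, log2 intensity minus the 75th percentile was averaged over spots of a probe. Probes stayed in if 4 or more arrays showed 50% or more of their spots well above background (16264 probes). Before this filter, 18377 of the array's probes were named through RefSeq GRCr8 by accession; the brightest probe stood for its gene. All 5 groups were fitted with limma 3.58.1 in R 4.3.3 (lmFit, eBayes), with 2 low-dose arrays that agreed within spot noise averaged, so 19 samples, and Benjamini-Hochberg adjustment over 13745 genes. A single-gene exact permutation test of 4 against 4 arrays could reach p = 0.0286 at best. The scripts were tested on simulated data.

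The members and the 37 gene lists were chosen with earlier results of these data known. Named were the 12 largest rises and 12 largest falls with adjusted p under 0.05, an established symbol and no overlap of groups, and from each list the first 3 measured genes and up to 3 more with the smallest p. Alternatives covered background correction, scaling, the dim-probe filter, probe choice, array weights, the value table, the exchanged doses and each array left out. Replicate numbers did not pair the arrays. The small number of arrays limits the precision of the changes, and changes near background also depend on the scaling and background setting. Of the genes chosen, 7 are not reported here, though counts include them.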

Additional observations from a re-analysis of the deposited data

Results flagged for a closer look

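Within each group of 4 arrays, 1 array lay far from the other 3 in 34 of 462 tests over 231 genes; chance gives about 1 in 20. Sham replicate 2 did so 11 times. It was the highest sham array for S100a9 (4.49), Camp (-4.09), Ifit3 (-1.79), Mmp13 (-2.17), Mmp10 (-4.86), Ppara (-4.01) and Per2 (-3.93). It was the lowest for Fstl4 (-3.58), Aqp4 (-0.39), Pde5a (-1.34) and Ndufa9 (1.93).

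Sham replicate 4 was the highest sham array for Dusp6 (2.12), Ldha (6.36) and the fat marker Pck1 (-2.79), and the lowest for Ptges (-2.33) and Fgfbp1 (-1.64). Sham replicate 1 was the highest for Il36b (3.38) and the lowest for Hpgds (-5.21), Col1a1 (4.10) and Tnfrsf1a (1.22).

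Among the high-dose arrays, replicate 4 was the highest for Ly6d (2.64), Krt14 (6.61) and Bpifa1 (-1.91) and the lowest for Cryba4 (-4.23), Aloxe3 (-0.77), Ndufa8 (0.52), Ndufa9 (1.03) and S100b (-1.55). Replicate 3 was the lowest for Bbox1 (-7.92) and the highest for Pck1 (-6.87). Replicate 2 was the highest for Plcxd2 (-3.41) and the lowest for Chrng (-0.29), and replicate 1 was the lowest for C3 (-0.45).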

How the results depend on the processing

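The counts of genes called are the results that moved most. With the 4 arrays titled 2 ml/kg, 687 genes were higher and 339 lower than sham. Leaving out 1 array gave 222 to 863 higher and 66 to 552 lower; the lowest counts came without high-dose replicate 4 (222 and 66), sham replicate 3 (238 and 68) and high-dose replicate 3 (284 and 114), and the highest without sham replicate 2 (863 higher) or sham replicate 4 (552 lower). Leaving out sham replicate 2 and omeprazole replicate 2 together, an alternative chosen after seeing the data, gave 782 and 393. The lower count was 844 with normexp, 805 with median scaling and 106 with a log2 change of at least 1. With array weights 2913 genes were higher and 4088 lower. Against untreated tissue (596 lower, 551 higher), the lower count was 1023 with normexp, the counts were 147 and 208 with only these 2 groups fitted and 314 and 250 with a log2 change of at least 1, and leaving out 1 array gave 131 to 680 lower and 163 to 617 higher. The replicate numbers paired no arrays (correlation of same-numbered deviations 0.07, 0.05, -0.12 and 0.13), and a fit with the replicate block gave 636 and 352 against sham and 677 and 645 against untreated tissue. Except where construction shows it, the cause was not tested.

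The deposited value table and the exchange of dose titles both put the arrays titled 0.5 ml/kg in place of the high dose, by construction. The table gave 0 genes higher and 0 lower than sham in limma (1027 at an unadjusted p under 0.05), and 1902 lower and 3392 higher than untreated. The exchange of titles gave 1 higher and 0 lower (1081 unadjusted), and 2172 lower and 2935 higher than untreated. Reported changes that took the other sign under the table and under the exchange, none past the threshold there (adjusted p 0.604 to 0.997), were Retnlg -0.30 and -0.31, Serpina3n -0.02 and -0.03, Spon1 -0.99 and -1.0, Krt1 0.70 and 0.69, Plcxd2 0.42 and 0.41, Angptl6 0.48 and 0.47, Cxcl12 -0.25 and -0.26, Il18 -0.23 and -0.24, Cd163 -0.40 and -0.41, Mrc1 -0.87 and -0.89, Fcer1g -0.11 and -0.12, A2m -0.23 and -0.24, C3ar1 -0.75 and -0.76, Serping1 -0.74 and -0.75, RT1-Da -0.31 and -0.32, Cd74 -0.17 and -0.18, RT1-Bb -0.18 and -0.20, RT1-Db1 -0.02 and -0.03, RT1-DMb -0.30 and -0.31, Tbxas1 -0.37 and -0.38, Mmp3 -0.33 and -0.35, Timp1 -0.20 and -0.21, Mmp2 -0.40 and -0.41, Mmp14 -0.56 and -0.57, Mmp10 -0.47 and -0.48, Plod2 -0.24 and -0.25, Lox -0.11 and -0.12, Grem1 -0.90 and -0.91, Meox1 -0.78 and -0.79, Icam1 -0.18 and -0.19, Esam -0.73 and -0.74, Plvap -0.56 and -0.57, Aplnr -0.27 and -0.29, Klk8 0.51 and 0.50, Aloxe3 0.57 and 0.56, Marveld2 0.33 and 0.32, Tjp3 0.51 and 0.49, Acadvl 0.25 and 0.24, Me1 0.27 and 0.26, Egln3 0.05 and 0.04, Slc26a9 0.47 and 0.46, Casp1 -0.09 and -0.10, Ripk3 -0.02 and -0.03, Clock 0.32 and 0.31, Ctse -0.61 and -0.62. Ptger2 turned to -0.05 with normexp and to -0.05 with a floor at background.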
